A study of Mus musculus with 2 samples.

Results

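Contacts between loci 30 Mb or more apart on the same chromosome were examined in the stretch of mouse chromosome 1 from 3 Mb to 90750 kb. They were taken from 1 deposited list of Hi-C read pairs for wild-type embryonic stem (ES) cells and 1 for *Lin28a* knockout ES cells. Each list is called a library here. Hi-C joins DNA ends that lie close together in fixed nuclei and reads both sides of each junction, so that a read pair is a record of 1 contact. A very far pair was a pair with both ends in this stretch and at least 30 Mb between them. The wild-type list held 221931 such pairs among 2448749 cis pairs (both ends on chromosome 1, in the stretch, at least 20 kb apart) and 5767991 pairs in all with the first end in the stretch. The knockout list held 150404 among 1973740 cis pairs and 4412861 pairs in all. Each end was placed in 1 of 351 bins of 250 kb, and each bin was classed by the number of protein-coding genes that start in it: 155 bins with no gene are called empty, 124 bins with 1-2 genes sparse and 72 bins with 3 or more dense.

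Both groups were mouse ES cells grown for 2 days on gelatin-coated plates with embryonic fibroblast feeder cells, in medium with LIF and the 2 inhibitors known as 2i, and fixed with 1% formaldehyde for 10 min. The knockout cells are labelled as lacking *Lin28a*, which encodes an RNA-binding protein of pluripotent cells best known for blocking maturation of let-7 microRNAs. The study worked with single clones edited by CRISPR/Cas9 and also with ES cells from *Lin28* knockout mice, and which line served for Hi-C is not given in the sources used here. A difference between the groups can therefore not be told apart from a difference between lines, and reads from feeder cells were not separated. *Lin28a* lies on chromosome 4 and received 12 trans ends (partners on another chromosome) in the wild-type list and 15 in the knockout list, which does not check the edit. Although 2 replicates per group are named in the labels, each group is a single list, so no spread between samples can be given. All intervals below are 95% intervals that cover counting error only, and no test was possible.

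In the interphase nucleus each chromosome occupies its own territory, and loci far apart along the DNA still meet at a low rate that falls with their distance. Within a territory, gene-rich active chromatin (the A compartment) tends to meet other gene-rich chromatin, and gene-poor silent chromatin (the B compartment), much of it at the nuclear lamina, tends to meet its own kind. Very far pairs bear on both properties: how compact the territory is, and how strictly like meets like across it. They are not a direct measure of compaction, which was not tested here.

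Very far pairs were less frequent in the knockout. They made up 9.06% (exact binomial interval 9.03% to 9.10%) of cis pairs in the wild type and 7.62% (7.58% to 7.66%) in the knockout, a ratio of 0.841 (0.835 to 0.846). The read names split each list into 2 sets, called runs here. Whether these are sequencing runs, lanes or the 2 replicates named in the labels is not given in the sources used here. Both wild-type sets (9.07% and 9.03%) lay above both knockout sets (7.63% and 7.38%). Pairs at middle distances went the other way: pairs 10 to 30 Mb apart made up 14.5% and 15.2% of cis pairs, and pairs 2 to 10 Mb apart 15.3% and 16.2%. The trans share of all pairs, 39.96% and 39.99%, did not move with this difference.

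The ratio fell with distance. At 30-40 Mb the shares were 3.84% and 3.55%, and the knockout to wild-type ratio was 0.927 (0.918 to 0.936). At 50-60 Mb they were 1.48% and 1.13%, with a ratio of 0.766 (0.754 to 0.779), and at 70-80 Mb 0.354% and 0.221%, with a ratio of 0.624 (0.602 to 0.647). Over all positions, each step from 30-40 to 70-80 Mb thus had a lower ratio than the step before it, with intervals that did not overlap. The mix of positions differs between steps. For first ends at 3-13 Mb alone the ratio was 0.628 (0.605 to 0.651) at 60-70 Mb and 0.622 (0.596 to 0.649) at 70-80 Mb. The last step, 80-90 Mb, broke the order with a ratio of 0.726 (0.677 to 0.778), and this came with a single short segment described below. Without pairs of that segment the ratio at 80-90 Mb was 0.542 (0.491 to 0.599).

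**Figure D1:**
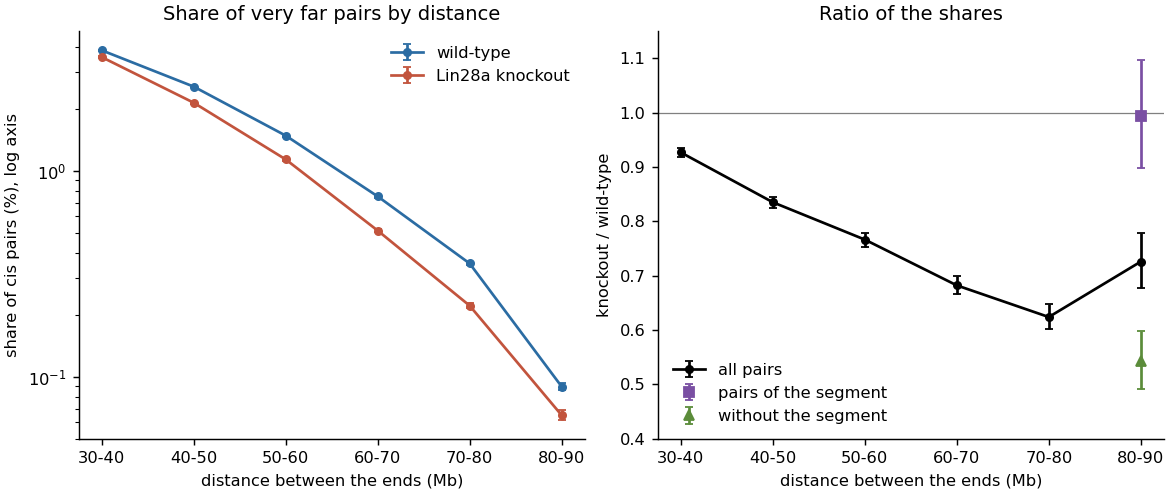
Left, share of cis pairs of at least 20 kb (%, log axis) in each 10 Mb distance step, for the wild-type (blue) and Lin28a knockout (red) libraries; right, knockout over wild-type ratio of those shares for all pairs (black) and, at 80-90 Mb, for pairs of the segment around Hjurp (purple square, 0.993) and all other pairs (green triangle, 0.542). Bars are 95% counting intervals. The ratio falls from 0.927 to 0.624 and rises again at the last step only with the segment included.

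Very far pairs remained more frequent than trans pairs at every distance. Bin pairs 30-40 Mb apart held 11.1 pairs each in the wild type and 8.29 in the knockout, against 0.702 and 0.539 for a bin of chromosome 1 with a bin of another autosome. Density was therefore 15.8 and 15.4 times the trans level. At 70-80 Mb it was 6.00 and 3.92 times the trans level. The 2 libraries were close to each other relative to trans at the near end of the range and differed more at longer distances, most at 70-80 Mb; at 80-90 Mb the levels were 6.29 and 4.79 times trans.

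Gene-dense bins met each other across these distances more often than distance and bin visibility predicted. The expected number splits all pairs at 1 distance over the bin pairs by the product of their visibilities, that is, by how readily each bin is seen in the whole cis map. Dense-dense pairs numbered 14203 in the wild type, 1.37 times expected (1.35 to 1.39), and 10271 in the knockout, 1.49 times expected (1.46 to 1.52). Empty-dense pairs were the most depleted, at 0.884 (0.875 to 0.893) and 0.866 (0.855 to 0.876) of expected. Empty bins met each other at 0.959 (0.949 to 0.969) and 0.959 (0.947 to 0.971) of expected, so the excess over expectation in both libraries was on the gene-dense side.

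The 3 class pairs with sparse bins lay in between. Sparse-dense pairs were at 1.13 (1.12 to 1.14) and 1.16 (1.14 to 1.17) of expected. Sparse-sparse pairs were at 1.04 (1.03 to 1.05) and 1.03 (1.01 to 1.04), and empty-sparse pairs at 0.957 (0.9499 to 0.965) and 0.942 (0.933 to 0.951). Set against the wild type, the knockout value was 1.08 (1.06 to 1.11) times as high for dense-dense and 1.03 (1.01 to 1.04) times for sparse-dense pairs, but 0.980 (0.964 to 0.995) times for empty-dense and 0.984 (0.972 to 0.996) times for empty-sparse pairs. For sparse-sparse and empty-empty pairs the interval of this ratio included 1. The empty-dense ratio did not hold at every distance. Its interval lay below 1 only at 30-40 Mb, at 0.964 (0.940 to 0.987), and included 1 at 40-50, 50-60 and 70-80 Mb. It was above 1 at 60-70 Mb, at 1.08 (1.02 to 1.14), and at 80-90 Mb, at 1.14 (1.02 to 1.27). Without the 2 bins at the *Hjurp* gene it was 0.878 at 80-90 Mb, with an interval that included 1. The dense-dense ratio was above 1 in 5 of 6 distance steps. Its interval included 1 at 70-80 Mb, at 1.03 (0.895 to 1.18), and at 80-90 Mb, at 0.936 (0.689 to 1.26). Without the same 2 bins it was 0.720 (0.441 to 1.14) at 80-90 Mb. The sparse-dense and empty-sparse ratios crossed 1 under some alternatives, at 0.99972 with 2 or more genes as dense and at 1.01 with the smaller runs only.

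**Figure D2:**
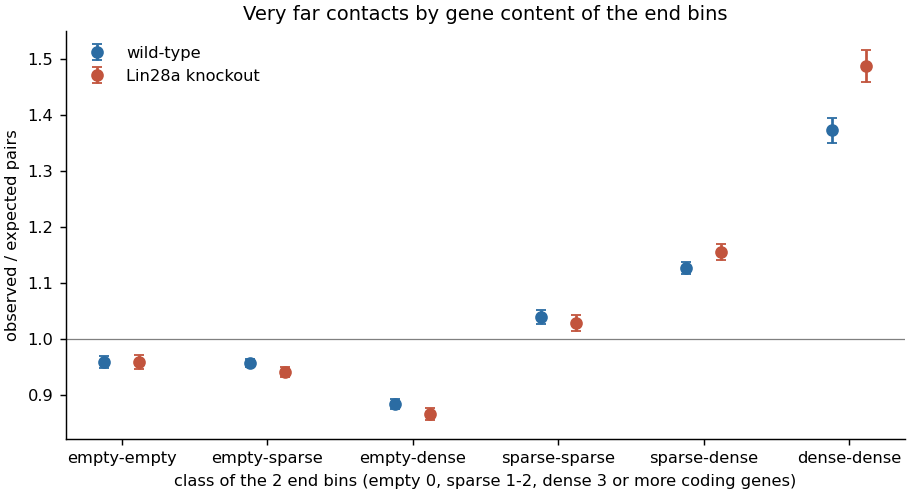
Observed over expected very far pairs for the 6 pairs of bin classes in the wild-type (blue) and Lin28a knockout (red) libraries, with 95% Poisson intervals; the grey line marks the expected number. Dense-dense pairs stand highest, at 1.37 and 1.49, and empty-dense pairs lowest, at 0.884 and 0.866.

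Contact with dense bins rose with gene number rather than in 1 jump. Without the 2 bins that hold *Hjurp* and its neighbours (a segment treated further on) and without 3 bins of too low visibility, the 153 bins with 0 genes met dense bins at 0.874 of expected in the wild type and 0.853 in the knockout. The 79 bins with 1 gene were at 1.05 and 1.06, and the 44 bins with 2 genes at 1.26 and 1.30. The 26 bins with 3 genes were at 1.27 (1.24 to 1.29) and 1.36 (1.32 to 1.39). The 21 bins with 4 genes reached 1.44 and 1.55, and the 23 bins with 5 or more genes 1.42 (1.39 to 1.45) and 1.56 (1.52 to 1.60). Intervals overlapped between 2 and 3 genes and between the last 2 groups, in both libraries.

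The classes also differed in features not used to define them. Median GC content was 38.8% in empty, 40.6% in sparse and 43.3% in dense bins. Median number of GATC sites, the sequence at which the deposited fragment numbers show the DNA was cut, differed little, at 633, 613 and 613 per bin. Median number of trans ends per bin was 5403, 6835 and 8342 in the wild type and 4157, 5173 and 6456 in the knockout, so dense bins were also those seen most often with other chromosomes.

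As shares of the very far pairs, dense-dense pairs made up 6.40% (6.30% to 6.50%) of wild-type and 6.83% (6.70% to 6.96%) of knockout pairs, although they are 3.92% of the bin pairs at these distances. Their share ratio was 1.07 (1.04 to 1.09). Empty-dense pairs made up 17.3% (17.1% to 17.4%) and 16.8% (16.6% to 16.9%), a ratio of 0.971 (0.956 to 0.987), and empty-empty pairs 16.0% in each, a ratio of 1.00 (0.987 to 1.02). These differences in kind were small beside the general loss: per cis pair, dense-dense contacts stood at 0.897 (0.875 to 0.920) of the wild-type rate and empty-dense contacts at 0.817 (0.804 to 0.830), and all 6 class pairs were below 1. In all 6 blocks of 10 Mb that held the first end (the end with the lower coordinate), the dense-dense ratio was above the empty-dense ratio. Their intervals were apart only at 23-33 Mb and 33-43 Mb and overlapped in the other blocks.

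The preference for the bin's own class can be put into 1 number, the class contrast, which is the log2 of empty-empty times dense-dense observed over expected divided by the square of empty-dense. It is 0 where classes mix freely. It was 0.75 (0.71 to 0.79) in the wild type and 0.93 (0.88 to 0.98) in the knockout, a difference of 0.17 (0.11 to 0.24). The knockout contrast was higher at 30-40 Mb (0.80 and 1.02), 40-50 Mb (0.85 and 1.03) and 50-60 Mb (0.69 and 0.90). At 60-70 Mb (0.77 and 0.71) and 70-80 Mb (0.51 and 0.51) the interval of the difference included 0. At 80-90 Mb the contrast was below 0 in both libraries, -1.06 and -1.72, and without the 2 *Hjurp* bins it was 0.69 (0.18 to 1.198) and 0.77 (-0.08 to 1.62). With only the smaller wild-type run, which holds 19345 very far pairs, the difference was 0.10 (-0.04 to 0.24).

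The same contrast was higher in the knockout at shorter range and in trans. At 2-10 Mb it was 0.73 and 0.83, at 10-30 Mb 0.85 and 0.97, and for trans pairs of the same bins 0.53 and 0.65. Without the 2 *Hjurp* bins, the difference between libraries at 30 Mb or more exceeded that at 10-30 Mb by 0.07 (-0.01 to 0.15) and that at 2-10 Mb by 0.10 (0.02 to 0.18). Against the 10-30 Mb band the interval of the excess thus included 0, and a larger gain at 30 Mb or more was not shown.

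Position mattered beside distance. The pairs were split by the 10 Mb block of the first end. At 40-50 Mb the knockout to wild-type ratio rose from 0.782 (0.764 to 0.801) for first ends at 3-13 Mb to 0.822 at 13-23 Mb, 0.831 at 23-33 Mb, 0.898 at 33-43 Mb and 0.901 (0.852 to 0.953) at 43-53 Mb. At 60-70 Mb it rose from 0.628 (0.605 to 0.651) to 0.716 and 0.783 (0.727 to 0.843). The rise was not steady at 30-40 Mb (0.871, 0.925, 0.933, 0.914, 0.998 and 0.958). At 70-80 Mb the values, 0.622 and 0.629, had overlapping intervals. The last block of each step is cut by the end of the stretch and holds only the shorter distances of the step. At 40-50 Mb it held 2979 wild-type pairs, against 15798 in the block before. Position and distance cannot be told apart in that block. In each step with several blocks the ratio was lowest where the first end lay next to the centromere, which in the mouse sits at the start of the chromosome. In 20 of 21 combinations of distance and block the interval lay below 1. The exception was 30-40 Mb with first ends at 43-53 Mb, at 0.998 (0.973 to 1.02).

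**Figure D3:**
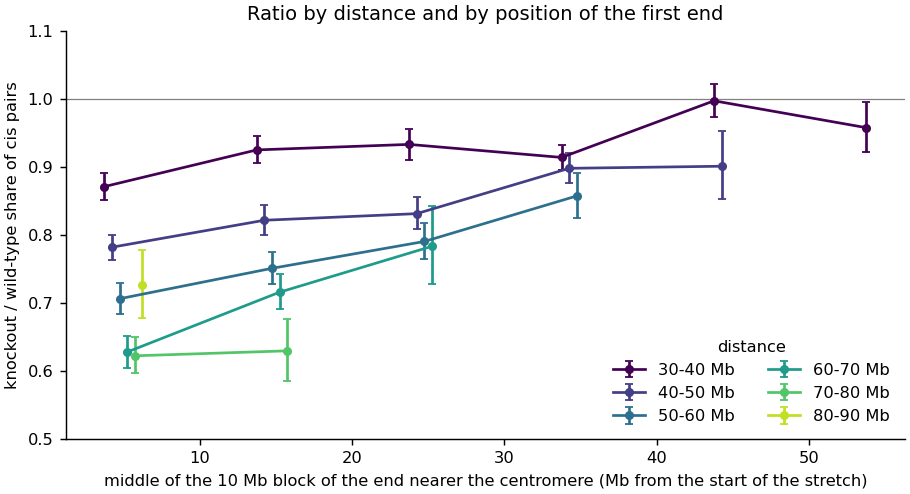
Knockout over wild-type share of cis pairs (vertical axis) for first ends in successive 10 Mb blocks (horizontal axis, block middle in Mb from the start of the stretch), 1 line per distance step, with 95% counting intervals. Points are slightly offset sideways. At 40-50 Mb the ratio climbs from 0.782 to 0.901, and the last point of each line holds only the shorter distances of its step. Up to 70-80 Mb each longer step lies lower in every block, though intervals of neighbouring steps overlap in several blocks. The single 80-90 Mb point, at 0.726, does not.

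Taken by pairs of blocks, the lowest ratios joined 3-13 Mb with 63-73 Mb (9308 and 4840 pairs, ratio 0.645, interval 0.623 to 0.668) and with 73-83 Mb (6858 and 3579 pairs, 0.647). The highest joined 23-33 Mb with 53-63 Mb (8157 and 6637 pairs, 1.01, interval 0.977 to 1.04) and 43-53 Mb with 73-83 Mb (8089 and 6545 pairs, 1.00). Pairs from 3-13 Mb to beyond 63 Mb together took a share of the very far pairs that was 0.775 (0.757 to 0.792) times as high in the knockout. Within distance steps it was 0.948 (0.933 to 0.963) times as high. At 80-90 Mb every pair is of this kind, so that step cannot differ and draws the pooled value toward no difference. The difference was thus smaller within distance steps, by an amount that the pooled value overstates. Trans ends, a gauge of copy number along the stretch, gave block ratios between 0.961 and 1.02, lowest in the block that starts at 83 Mb, and their part in the position pattern was not tested.

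Single bins followed the same course. Of 351 bins, 346 had at least 1000 very far ends over both libraries, and 345 of these had a lower very far share in the knockout (ends 30 Mb or more from their partner among all cis ends of the bin). The median ratio was 0.840 for empty, 0.845 for sparse and 0.870 for dense bins. Over bins at 3-13 Mb the median was 0.762, at 33-43 Mb 0.902 and at 63-73 Mb 0.780. A bin near the middle of the stretch cannot reach the longest distances, where the ratio was lower. Bin ratios were not split by distance, so the place of a bin and its reach cannot be told apart in them. The low bins at 3-13 Mb and 63-73 Mb count the same pairs as the block pair that lost most, so they are not a separate result.

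**Figure D4:**
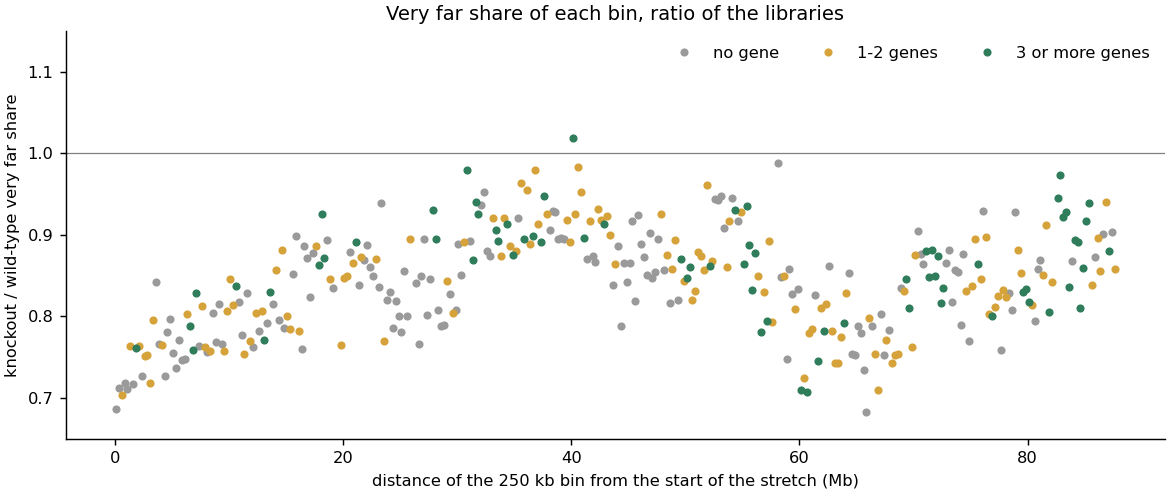
Knockout over wild-type ratio of the very far share of each 250 kb bin (vertical axis) against its distance from the start of the stretch in Mb, for 346 bins, coloured by class (grey no gene, gold 1-2 genes, green 3 or more). All but 1 point lie below 1, with low stretches at the start and near 65 Mb from the start, in bins of all classes. Bins near the middle of the stretch cannot reach the longest distances.

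The lowest bins came from those 2 stretches in every class. Among empty bins they were 68.75-69 Mb (11.2% and 7.61%, ratio 0.682), 3-3.25 Mb (15.1% and 10.4%, 0.686) and 4-4.25 Mb (12.2% and 8.71%, 0.712). Among sparse bins they were those with *Xkr4* (3.5-3.75 Mb, 0.703), *Spag16*, an axoneme protein of sperm tails (69.75-70 Mb, 0.710), and *Rb1cc1*, needed to start autophagy (6-6.25 Mb, 0.719). Among dense bins the lowest were 63.5-63.75 Mb with *Dytn*, *Mdh1b*, *Fastkd2* and *Gm39653* (0.707), 63-63.25 Mb with *Ino80d*, *Ndufs1*, *Gpr1* and *Eef1b2* (7.03% and 4.99%, 0.710) and 64.5-64.75 Mb with *Creb1*, *Ccnyl1*, *Mettl21a* and *Fzd5* (0.746). *Ndufs1* encodes a subunit of respiratory complex I, and *Creb1* a transcription factor that answers cyclic AMP. The highest were the dense bin of *Fhl2*, *Tgfbrap1* and *AI597479* at 43-43.25 Mb (8.13% and 8.28%, 1.02, interval 0.938 to 1.11), the sparse bin of *1500015O10Rik* at 43.5-43.75 Mb (0.984) and an empty bin at 61-61.25 Mb (0.989), all with intervals that included 1. None of these 3 bins reaches the longest distances of the stretch.

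The strongest very far contacts of the summed map, seen in windows of 1 Mb, were of 2 kinds. Some joined windows at 36-40 Mb with windows from 74 Mb on, most of them rich in genes. The window at 36-37 Mb (19 genes, among them *Tmem131*, *Fam178b* and *Uggt1*) met that at 74-75 Mb (30 genes, among them *Tns1*, *Usp37* and *Stk36*) in 530 wild-type and 440 knockout pairs, 2.14 and 2.63 times expected. The window at 37-38 Mb (15 genes), with *Inpp4a* and *Eif5b* (a translation initiation factor), met the last window, from 90 Mb on, which holds only 4 genes, with *Ackr3* (an atypical chemokine receptor) and *Cops8* (a COP9 signalosome subunit), in 200 and 177 pairs, 1.94 and 2.88 times expected. The window at 39-40 Mb (9 genes), with *Npas2* (a circadian transcription factor) and *Map4k4* (a kinase), met 86-87 Mb (15 genes), with *Dis3l2* (an exoribonuclease) and *Psmd1* (a proteasome subunit), in 345 and 274 pairs, 2.06 and 2.56 times expected. For these 3 window pairs the share of very far pairs was 1.17 to 1.31 times as high in the knockout, with the interval of the last including 1.

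The other kind joined the start of the stretch with 88-89 Mb. The window at 3-4 Mb, whose only coding gene start is that of *Xkr4*, met 88-89 Mb in 455 and 317 pairs, 3.01 and 3.13 times expected. The window at 4-5 Mb, with *Rp1* (a photoreceptor protein), *Sox17* (an endoderm transcription factor) and 4 more genes, met it in 299 and 240 pairs, 2.52 and 2.90 times expected. These contacts came from 1 segment with sharp edges.

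The most likely limits of that segment, from both libraries together, were chr1:88211762-88286983 in mm10, a length of 75.2 kb. It holds *Ugt1a1*, which encodes the enzyme that conjugates bilirubin, *Mroh2a*, and *Hjurp*, which encodes the chaperone that deposits the centromeric histone CENP-A, each whole, with the shared 3′ part of the other *Ugt1a* genes and the first 9323 bp of *Trpm8*, a cold-sensing ion channel. Its left edge lies in introns of the longer *Ugt1a* genes just before the *Ugt1a1* start, and its right edge in an intron of *Trpm8*. Sequence at both edges and at *Hjurp* is shown because the finding turns on where the segment begins and ends and on what it holds. The first is the RefSeq promoter of *Ugt1a1* (plus strand, chr1:88211709-88212008), which spans the left edge, the second that of *Hjurp* (minus strand, chr1:88277530-88277829) and the third the genome around the right edge (plus strand, chr1:88286884-88287083), all from GRCm38.p6, the build that mm10 names, with GATC in capitals as the cut site from which Hi-C ends start.
Ugt1a1 promoter: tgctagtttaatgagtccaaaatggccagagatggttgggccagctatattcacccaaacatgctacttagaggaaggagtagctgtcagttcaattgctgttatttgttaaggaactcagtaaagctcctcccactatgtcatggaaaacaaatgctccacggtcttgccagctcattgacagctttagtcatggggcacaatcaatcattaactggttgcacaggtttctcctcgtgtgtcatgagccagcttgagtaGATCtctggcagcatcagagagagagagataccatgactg
Hjurp promoter: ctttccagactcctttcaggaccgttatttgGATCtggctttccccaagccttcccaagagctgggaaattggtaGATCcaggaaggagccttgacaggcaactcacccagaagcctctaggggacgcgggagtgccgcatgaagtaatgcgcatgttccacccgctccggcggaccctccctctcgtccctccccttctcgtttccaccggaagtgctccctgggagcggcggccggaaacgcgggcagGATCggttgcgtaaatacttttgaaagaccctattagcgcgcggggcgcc
Right edge: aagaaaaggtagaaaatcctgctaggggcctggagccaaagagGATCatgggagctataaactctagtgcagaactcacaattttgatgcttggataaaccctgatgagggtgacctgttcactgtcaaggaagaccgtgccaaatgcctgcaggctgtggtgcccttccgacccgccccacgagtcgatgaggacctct
The *Ugt1a1* promoter holds 1 GATC and 2 CG pairs, and the *Hjurp* promoter 3 GATC and 22 CG pairs. Of 32851 mouse promoters of this length, 48.0% hold GATC (which reads the same on both strands), and their median number of CG pairs is 7.

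Contacts of the segment with 3 to 10 Mb numbered 968 in the wild type and 758 in the knockout, against 29 and 21 for the 50 kb on each side together. Per base this was 44.4 (30.7 to 66.6) and 48.0 (31.2 to 77.98) times the level of the flanks. Windows of 10 kb that touch the segment held 86 to 164 such pairs in the wild type and 43 to 133 in the knockout, whereas elsewhere beyond 34 Mb the median was 7 and 4 and the highest 36 and 23. No window outside the segment reached its lowest window in either library.

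The contacts were strongest at the very start of the assembled chromosome and fell away from it. Partners at 3-4 Mb gave 415 wild-type and 306 knockout pairs, at 4-5 Mb 250 and 222, at 5-6 Mb 95 and 87, and at 9-10 Mb 43 and 22. Beyond 10 Mb the wild-type level was lower, between 31.8 pairs per Mb at 10-20 Mb and 21.2 at 40-50 Mb, with 30 at 30-40 Mb. In the knockout it was 22.7 at 10-20 Mb, no lower than at 9-10 Mb, then 20.8 at 30-40 Mb and 14.4 at 40-50 Mb. The steepest part of the decline thus lay in the first few Mb, next to the centromere.

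At 80-90 Mb, pairs of the segment and all other pairs differed in their knockout to wild-type ratio. The segment gave 892 of 2191 wild-type pairs (40.7%) and 714 of 1282 knockout pairs (55.7%). Per cis pair the segment's ratio there was 0.993 (0.899 to 1.097), against 0.542 (0.491 to 0.599) for all other pairs of that step. With partners beyond 10 Mb its very far pairs numbered 1284 and 895, a ratio of 0.865 (0.793 to 0.943), so there the segment was lower in the knockout too. The return of the ratio at the last distance step and the negative class contrast there were both absent without it.

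Other readouts of the segment were raised too. Its trans ends numbered 7067 and 5065, 2.69 (2.58 to 2.80) and 2.60 (2.48 to 2.73) times the flanks per base, and its very far pairs with partners beyond 10 Mb were 3.16 and 3.38 times the flanks. Its cis ends 20 kb to 2 Mb from their partner were only 1.18 (1.13 to 1.24) and 1.21 (1.14 to 1.27) times the flanks. The excess was thus seen at very long range and in trans, and little at short range. Of pairs with 3 to 10 Mb, 63.4% and 64.4% had mapping quality of at least 30 at both ends, against 86.5% and 85.2% of all very far pairs, and with that limit the segment still stood at 30.2 (20.6 to 46.3) and 40.5 (24.7 to 71.5) times its flanks. The reference genome holds the segment once: the longest alignment elsewhere spanned 1337 bp. Whether these cells carry the segment in another place was not tested.

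**Figure D5:**
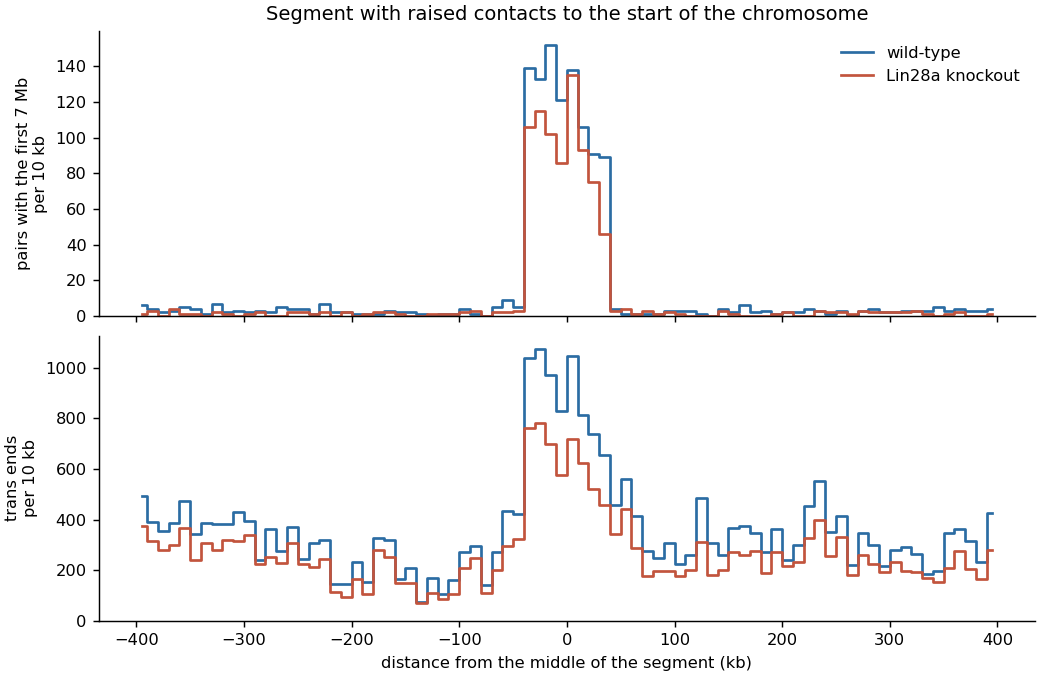
Top, very far pairs with the first 7 Mb of the stretch and bottom, trans ends, both counted per 10 kb window, against distance in kb from the middle of the segment, in the wild-type (blue) and Lin28a knockout (red) libraries. Contacts rise at both edges from a few pairs to between 46 and 152, and trans ends rise in the same place, by 2.69 and 2.60 times.

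Among 1711 pairs of 1 Mb windows at least 30 Mb apart, 1443 had at least 100 pairs over both libraries. Their shares of very far pairs were more than 1.5 times as high in the knockout for 14 (0.970%) and lower by the same factor for 63 (4.37%). Over all 3479 such window pairs at least 2 Mb apart, which include the very far ones, 0.0862% were higher and 6.38% lower. Those shares were taken of all pairs at least 2 Mb apart, so they also carry the general loss of very far pairs. With different totals, these percentages cannot be compared with those of the very far window pairs. Of the 63, 57 were 50 Mb or more apart and 42 had the first window below 13 Mb, where 516 and 411 of the 1443 lay; of the 14, 1 and 0. Scaled within each distance step, 8 were higher and 24 lower. The balance turned round without the larger wild-type run (110 higher and 25 lower) and in windows of 500 kb (37 and 7), and without the larger knockout run 180 were higher and 285 lower, so neither count nor their balance was stable.

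All 5 window pairs with the lowest ratio had a first window at 11-12 Mb or nearer to the centromere. They joined 11-12 Mb with 84-85 Mb (99 and 31 pairs, ratio 0.462, interval 0.298 to 0.698), where *Dner*, a Notch ligand, and *Trip12*, a ubiquitin ligase, start, and 7-8 Mb (*Pcmtd1*) with 64-65 Mb (108 and 34 pairs, 0.465), where *Klf7* and *Creb1*, both transcription factors, start. The others joined 4-5 Mb with a window without genes at 76-77 Mb (79 and 25 pairs, 0.467), and 7-8 Mb (119 and 38 pairs, 0.471) and 3-4 Mb (81 and 26 pairs, 0.474) with 63-64 Mb, the window of the imprinted genes *Zdbf2* and *Gpr1*.

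The highest ratios lay further along the arm. The window at 25-26 Mb, with the start of *Adgrb3*, an adhesion receptor of neurons, met 55-56 Mb, with the splicing factor gene *Sf3b1*, in 105 and 121 pairs (1.70, interval 1.30 to 2.23) and 73-74 Mb, with *Tnp1*, a sperm chromatin protein, in 65 and 73 pairs (1.66). The window at 46-47 Mb, with *Dnah7b*, *Dnah7c* and *Slc39a10*, met 85-86 Mb, with *Sp100* and *Sp140*, in 85 and 95 pairs (1.65). A window without genes at 49-50 Mb met 82-83 Mb, with the basement membrane collagens *Col4a3* and *Col4a4*, in 143 and 157 pairs (1.62), and 31-32 Mb met 61-62 Mb, with *Pard3b*, in 71 and 77 pairs (1.60). These 10 window pairs were picked for their ratios, so their intervals describe counting error and no more.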

How the data were processed

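The authors deposited 1 list of valid Hi-C pairs per group, in the layout of HiC-Pro. Per the labels, CASAVA 1.8, Bowtie2 and HiC-Pro were used with the mm10 build, reads were 150 bases from DNA sheared to about 400 bp, and no other setting is given in the sources used here. The deposited fields used here were chromosome, position, fragment number, run name and the mapping quality score of both ends; other fields of the 13 were not used. Lists are sorted by first end and end within a line, the wild-type list just after 90750 kb, so both were cut there. Depth was 5767991 and 4412861 pairs with the first end in the stretch.

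Genes were GENCODE M21 protein-coding genes placed by 5′ start. Visibility came from iterative correction of cis pairs of at least 20 kb in 250 kb bins, leaving out bins under 20% of the median, and expected totals were fixed at each 250 kb of distance. Binomial, Poisson and ratio intervals are exact, those of the contrast follow from the counts, and all cover counting error only. Named bins and windows followed fixed rules: the 5 window pairs with the highest observed over expected and the 5 with the highest and lowest ratio (at most 2 pairs a window), and the 3 bins of each class with the highest and lowest ratio; of the highest bins 1 per class is printed. Members and lists were chosen with earlier results of these data known. The segment was delimited after its contacts were seen, as the interval with the highest likelihood of 2 pair densities, and searched for in the genome with minimap2 2.31. Python 3.11.15, numpy 2.4.6, scipy 1.17.1 and matplotlib 3.10.9 were used, and the calculations were tested on simulated data. Alternatives were mapping quality of at least 30, single runs, other classes, bins, visibilities, distances and windows, a thinned wild-type list, leaving out blocks and, added after seeing the data, leaving out the 2 bins of the *Hjurp* segment and RefSeq genes.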

Additional observations from a re-analysis of the deposited data

Results flagged for a closer look

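Trans pairs were not split by partner chromosome in the comparisons above. Among them, the segment around *Hjurp* stood out by its partner chromosome: 23.6% (1671 of 7067, exact binomial interval 22.7% to 24.7%) of its trans ends in the wild type and 23.001% (1165 of 5065, 21.8% to 24.2%) in the knockout lay on chromosome 4, against 6.09% and 5.74% of the trans ends of the rest of the stretch. Within the first 10 Mb of chromosome 4 they too were most frequent at the start. There were 172 and 133 ends at 3-4 Mb, 98 and 73 at 4-5 Mb and 27 and 26 at 9-10 Mb. These first 10 Mb held 505 of the 1671 wild-type and 400 of the 1165 knockout ends on chromosome 4. Most of them thus lay further along, where their distribution was not examined. The first 10 Mb of chromosome 4 took 7.15% and 7.90% of the segment's trans ends and 0.347% and 0.370% of those of the rest. The cause was not tested.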

How the results depend on the processing

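No paired analysis was possible because each group is 1 list, and the 2 runs per list are not matched to replicates by the labels. Of 214 recomputed values, 161 were classed as the same, 46 as moved and 7 as turned to the other side. Ratios and contrast differences were classed as moved where they left the counting interval of the main value. Counts of window pairs have no such interval and were classed by the size of their change. A value was classed as turned only where the main interval excluded no difference, so other crossings of 1 are not among the 7. The empty-sparse share ratio, for example, was 0.990 (0.978 to 1.002) in the main setting and 1.017 with the smaller runs only. The very far share ratio was 0.814 without the larger knockout run, 0.817 with the smaller runs only, 0.856 over all cis pairs, 0.827 over cis pairs of at least 1 Mb, and 0.876, 0.778 and 0.723 at 25, 40 and 50 Mb. The dense-dense share ratio was 1.04 without the larger wild-type run and 1.03 with the smaller runs only; the empty-dense share ratio was 0.988 with genes counted in every bin they overlap. The dense-dense observed over expected ratio was 1.05 with the smaller runs only and with trans visibility, and 1.06 with 2 or more genes as dense. The contrast difference was 0.10 without the larger wild-type run and between 0.12 and 0.22 in the other 20 alternatives, lowest without 33 to 43 Mb. The sparse-dense share ratio turned to 0.997 without the larger knockout run and with the smaller runs only, 0.996 with overlapping genes and 0.998 with 2 or more genes as dense, where its observed over expected ratio was 0.99972. The empty-sparse observed over expected ratio turned to 1.00 without the larger knockout run and 1.01 with the smaller runs only. The ratio for pairs from 3-13 Mb to beyond 63 Mb was 0.752 with the smaller runs only, 0.739 for the first 5 Mb, 0.948 within distance steps and 0.755 without the 2 bins of the *Hjurp* segment. Window pairs higher and lower numbered 110 and 25 without the larger wild-type run, 180 and 285 without the larger knockout run, 1 and 16 at 2 Mb, 37 and 7 at 500 kb, 5 and 5 with at least 200 pairs, 8 and 24 within distance steps and 0 and 7 at 2-fold; 115 were lower with at least 50 pairs. With the smaller runs only, no window pair had 100 pairs. Causes were not tested, beyond the fewer pairs in single runs. Sparse-dense and empty-sparse differences are therefore not stable, and neither are the counts of window pairs; fewer pairs per window pair widen their intervals.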
